A study of Mus musculus with 32 samples.

Results

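The genes described here are 9 markers of GABA interneurons, the inhibitory neurons of the hippocampus: Gad1, Gad2, Slc32a1, Sst, Pvalb, Npy, Vip, Cck and Reln. They were taken by symbol from the platform annotation, which gave 11 probes among 25697, or 9 genes among 16593. The series comprises 32 single-channel bead arrays of aged mice, and all 4 treatment groups of hippocampus were used, plus the muscle arrays for Pvalb, which fast muscle fibres also express. Hippocampal groups of 4 arrays each came from mice that had received AICAR, a nucleoside that activates AMP-activated protein kinase once phosphorylated inside the cell, for 3, 7 or 14 days, or saline for 3 days. The AICAR dose was 500 mg/kg/day by intraperitoneal injection. Every group shared the same strain (C57BL/6J), sex (female) and age (23 months), and tissue was collected 33 days after the last injection, after perfusion with saline. The gastrocnemius muscle groups had the same design. Saline was given for 3 days only, so the longer injection schedule and AICAR cannot be told apart at 7 and 14 days. No source used here says whether replicates are separate mice or whether both tissues share mice, so the p-values measure the spread between arrays, which may be technical.

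GABA interneurons make GABA from glutamate with the decarboxylases encoded by Gad1 and Gad2, and load it into vesicles with the transporter encoded by Slc32a1. They fall into classes that are recognised by a neuropeptide or a calcium-binding protein. Somatostatin (Sst) marks many dendrite-targeting cells, parvalbumin (Pvalb) marks fast-spiking cells that contact cell bodies, vasoactive intestinal peptide (Vip) marks cells that often inhibit other interneurons, and cholecystokinin (Cck) marks a class of basket cells but is also made by pyramidal neurons. Neuropeptide Y (Npy) is made by several of these classes. Reelin (Reln) is a secreted glycoprotein that guides neuronal positioning in development, and in the adult hippocampus it is made by interneurons and remaining Cajal-Retzius cells.

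The promoters of Sst and Reln are shown because these members were called against saline, and that of Vip because somatostatin and VIP are both known as cyclic AMP-responsive peptide genes. The windows run from 250 bases before to 50 bases after the RefSeq start site (GRCm38.p6), and each is written 5′ to 3′ on the gene's strand. Capitals mark the full cyclic AMP response element TGACGTCA in Sst, its core TGACG in Vip, and the GC box GGGCGG in Reln. Both strands were searched, and the full element contains the core on each strand.
Sst, chr16:23890795-23891094, minus strand: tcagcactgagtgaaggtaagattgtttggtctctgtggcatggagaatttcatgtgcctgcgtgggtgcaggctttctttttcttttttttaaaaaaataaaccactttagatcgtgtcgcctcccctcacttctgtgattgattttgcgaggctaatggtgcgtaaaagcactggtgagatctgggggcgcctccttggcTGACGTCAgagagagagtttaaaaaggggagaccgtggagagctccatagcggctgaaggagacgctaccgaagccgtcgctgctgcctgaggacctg
Vip, chr10:5638968-5639267, plus strand: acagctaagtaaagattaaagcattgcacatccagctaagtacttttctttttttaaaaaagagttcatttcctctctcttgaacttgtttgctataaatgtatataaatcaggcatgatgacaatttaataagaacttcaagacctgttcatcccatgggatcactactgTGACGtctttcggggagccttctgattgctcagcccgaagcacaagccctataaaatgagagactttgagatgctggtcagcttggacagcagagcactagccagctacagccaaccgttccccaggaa
Reln, chr5:22344656-22344955, minus strand: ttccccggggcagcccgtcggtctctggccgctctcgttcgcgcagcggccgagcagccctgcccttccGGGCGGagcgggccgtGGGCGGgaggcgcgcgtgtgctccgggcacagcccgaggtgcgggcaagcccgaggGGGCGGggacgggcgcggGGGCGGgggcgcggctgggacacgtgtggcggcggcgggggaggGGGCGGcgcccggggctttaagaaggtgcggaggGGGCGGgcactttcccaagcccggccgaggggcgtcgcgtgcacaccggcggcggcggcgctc
The Sst element begins 48 bases before the start site and the Vip core 79 bases before it. Of 32851 promoter windows in the same table, 1.79% held TGACGTCA, 20.8% held TGACG and 35.7% held GGGCGG. The Reln window held 6 GC boxes and had 80.7% G and C, against 50.3% for Sst, 41.7% for Vip and a median of 52.7% over all windows. Among the 10 windows of the 9 members, the full element was found in Sst and in no other member. The core was also present once each in Cck and Gad2, and 1 GC box each in Gad1 and Npy. Such matches describe the letters of the window and do not show binding.

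The markers were checked by tissue. In hippocampus 9 probes of 8 genes were detected on 16 of 16 arrays (detection p below 0.05), and they were bright: Sst had a higher mean than 98.1% of all probes, Slc32a1 than 97.7% and Reln than 92.0%, as ranks within the array. The Gad2 probe was detected on 0 of 16 arrays (detection p from 0.548 to 0.912), as was the second Vip probe (0.0576 to 0.444), so neither was tested and neither level is given. In muscle the probes of Gad1, Slc32a1, Sst, Cck, Gad2 and the first of Vip were detected on 0 of 16 arrays, the Npy probe on 1, and the second Vip probe on 2. The Pvalb and Reln probes were detected on all 16 muscle arrays. Values below are log2 intensities after background correction and quantile normalization within a tissue, and a difference of 1 is a doubling. The test is limma's moderated linear model, two-sided, with p-values adjusted by Benjamini and Hochberg over the 13659 hippocampal probes tested and called below 0.05. The ± of a group mean is its SD across 4 arrays, and the ± of a log2 fold change is limma's standard error (SE).

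The arrays formed 2 sets that coincide with treatment, saline with 3 days and 7 with 14 days, which the first principal component of hippocampus separated (36.0% of variance). The median intensity of undetected probes in hippocampus was 146.2 to 161.2 on 7-day and 14-day arrays and 114.8 to 126.2 on 3-day and saline arrays. Muscle arrays were split in the same way by their first principal component (44.9% of variance). Their undetected probes read 141.8 to 167.7 on 7-day and 14-day arrays and 114.7 to 133.8 on 3-day and saline arrays. How the arrays were handled and how the mice were treated cannot be told apart across this split, which touches every 7-day and 14-day result below. These are also whole-tissue samples, in which fewer cells of a type and less RNA per cell cannot be told apart.

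After 3 days of AICAR none of the 9 member probes was called. Their differences from saline ran between -0.27 ± 0.16 for Vip and 0.07 ± 0.14 for the second Gad1 probe, and adjusted p-values were 0.872 or more in limma. In this comparison 0% of all probes were called, while 823 of 13659 (6.03%) had an unadjusted p below 0.05, none of them a member. The 95% interval of the difference was -0.15 to 0.18 for Cck, -0.34 to 0.04 for Slc32a1 and -0.36 to 0.12 for Sst.

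After 7 days Sst was higher than in saline, and it was the only member called. It averaged 12.36 ± 0.11 on the 7-day arrays and 11.93 ± 0.22 on the saline arrays (SD, n = 4 each). The 7-day arrays read 12.28, 12.27, 12.41 and 12.49, against 12.22, 11.98, 11.75 and 11.77 on the saline arrays. All 7-day arrays lay above all saline arrays. Sst rose by 0.43 ± 0.11 (limma adjusted p = 0.0113), a 1.35-fold change with a 95% interval of 1.14 to 1.59. With 1 of 9 member probes called, the members' share stands against 27.1% of all probes called in this comparison, and 1 of 9 without overlapping arrays against 30.3%. The median log2 fold change of the 9 was -0.01, and of all tested probes -0.03. The call of Sst held when any single array was left out, and was lost on the authors' own scaled values (0.21 array SDs, adjusted p = 0.103).

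Gad1, a gene for GABA synthesis, was measured by 2 probes. Probe 1 read 11.81, 11.80, 12.24 and 11.98 on the 7-day arrays, against 11.70, 11.56, 11.81 and 11.60 on the saline arrays. Probe 2 read 11.22, 11.22, 11.80 and 11.53 on the 7-day arrays, against 11.19, 11.44, 11.19 and 11.15 on the saline arrays. On both probes the groups overlapped and replicate 3 was the highest 7-day array. The differences from saline were 0.29 ± 0.15 (adjusted p = 0.161) and 0.20 ± 0.14 (0.310), neither of them called. Slc32a1, the vesicular GABA transporter, differed by -0.01 ± 0.09, with a 95% interval of -0.20 to 0.18. The peptide genes Npy and Cck stood at 0.11 ± 0.11 and -0.14 ± 0.08, and Vip and Pvalb at -0.15 ± 0.16 and -0.15 ± 0.10. Reln stood at -0.29 ± 0.11 with an adjusted p of 0.0605, just outside the threshold.

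After 14 days Sst was again higher and Reln was lower than in saline. Sst averaged 12.27 ± 0.06 on the 14-day arrays and 11.93 ± 0.22 on the saline arrays. The 14-day arrays read 12.19, 12.26, 12.32 and 12.31, and 3 of the 4 lay above every saline array. The exception, 12.19, lay below saline replicate 1 at 12.22. Sst rose by 0.34 ± 0.11 (limma adjusted p = 0.0349). That call was sensitive to single arrays: it was lost without 14-day replicate 2, 3 or 4 or without saline replicate 2, 3 or 4 (adjusted p from 0.0523 to 0.102). It was also lost under median scaling (0.35, adjusted p = 0.0951) and on the authors' scaled values (0.19 array SDs, 0.144). The same held with no filter on dim probes (0.0525) and with the replicate number as a block (0.0581).

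Reln averaged 9.97 ± 0.15 on the 14-day arrays and 10.47 ± 0.11 on the saline arrays. The 14-day arrays read 10.08, 9.86, 9.81 and 10.11, against 10.59, 10.45, 10.33 and 10.51 on the saline arrays. The groups did not overlap. Reln fell by 0.50 on the log2 scale (SE 0.11, limma adjusted p = 0.00331), to 0.71 of the saline level with a 95% interval of 0.60 to 0.83. The call held with any single array left out, and was lost under median scaling (-0.40, adjusted p = 0.0833), in which the median of all probes stood at 0.07. On the deposited intensities, with no correction at all, Reln differed by -0.11 log2 units and Sst by 0.59, while Slc32a1 stood at 0.14 and Cck at 0.23, so the size of the Reln difference depends on the normalization.

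**Figure D1:**
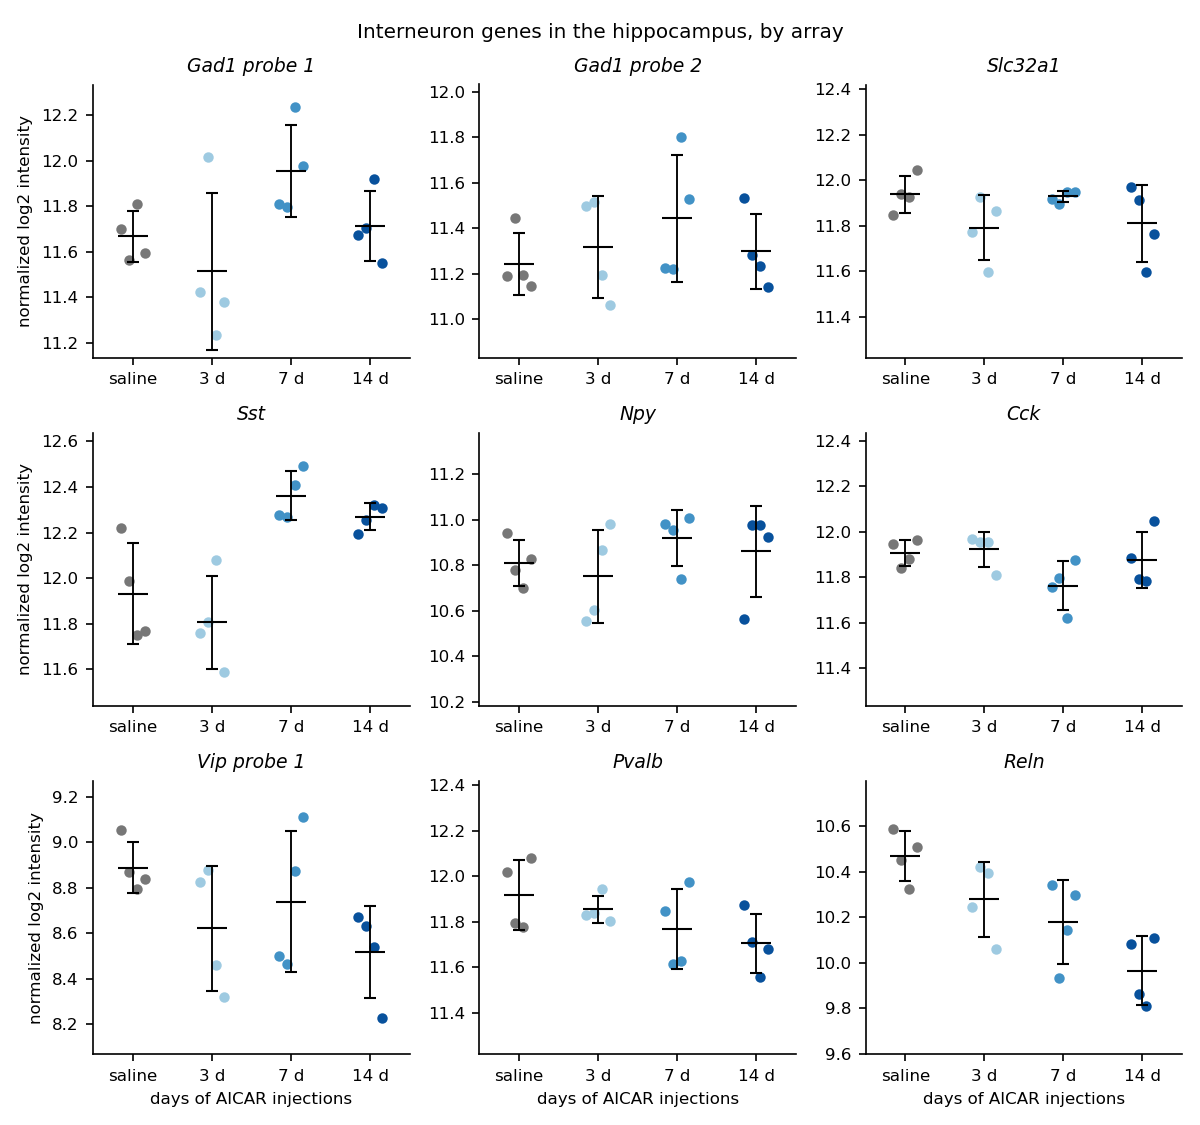
Normalized log2 intensity (y axis) of the 9 tested member probes in hippocampus, by treatment group (x axis); each point is 1 array, and the black bar with whiskers is the group mean with its SD (n = 4). Sst points at 7 days sit from 12.27 to 12.49 and Reln points at 14 days from 9.81 to 10.11, on the far side of all saline points in both panels; each panel spans the same number of log2 units but has its own level.

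In the 14-day comparison 2 of 9 member probes were called, 1 higher and 1 lower, against 29.5% of all probes. Vip and Reln were the 2 of 9 whose arrays did not overlap with saline, against 31.8% of all probes. Vip read 8.67, 8.63, 8.54 and 8.23 on the 14-day arrays, against 9.05, 8.87, 8.79 and 8.84 on the saline arrays. All normalized Vip values at 14 days lay below the lowest saline value, yet the difference of -0.37 ± 0.16 was not called (adjusted p = 0.0868). On the deposited intensities Vip read 414 to 707 at 14 days and 485 to 562 in saline, a difference of 0.11 log2 units. The direction and the lack of overlap for Vip thus depend on the normalization. Pvalb stood at -0.21 ± 0.10 (0.123) and Slc32a1 at -0.13 ± 0.09 (0.302). Cck, Npy and both Gad1 probes were within 0.06 of saline, at -0.03, 0.05, 0.04 and 0.05. The 95% intervals of these 4 reached from -0.27 to 0.36.

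**Figure D2:**
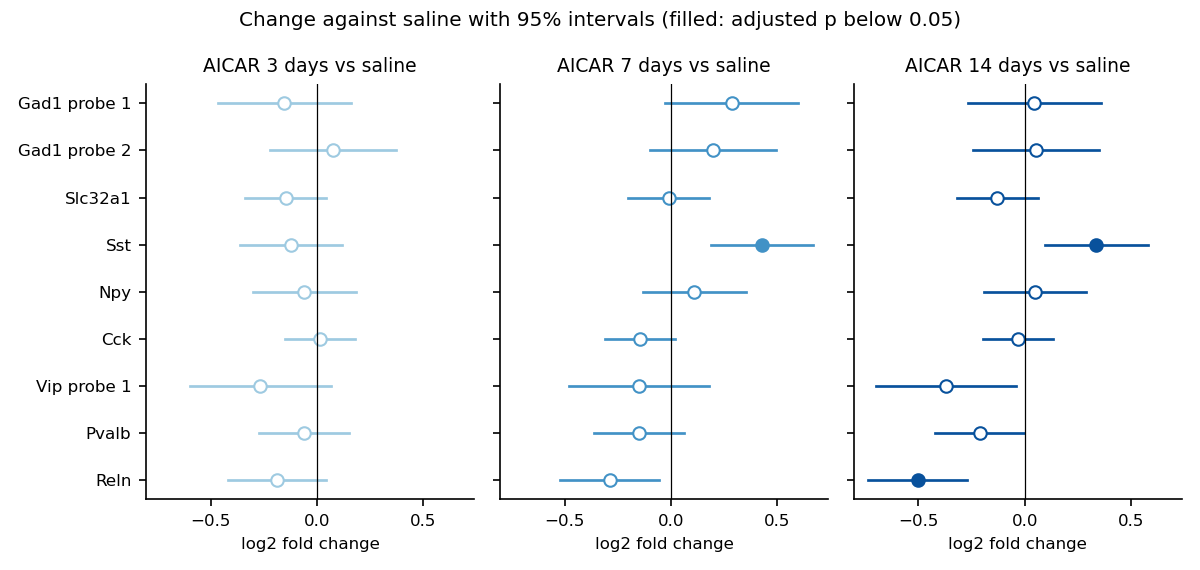
Log2 fold change against saline (x axis) of each tested member probe (rows) after 3, 7 and 14 days of AICAR; lines are 95% intervals of limma's model and filled points have an adjusted p below 0.05. Filled points are Sst at 7 days (0.43) and at 14 days (0.34) and Reln at 14 days (-0.50); no probe is filled at 3 days.

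Durations were also compared with each other. At 7 days against 3 days, 2 of 9 member probes were called, against 26.2% of all probes, and both were higher. Sst read 12.28, 12.27, 12.41 and 12.49 at 7 days, against 11.76, 11.80, 12.08 and 11.59 at 3 days. It was the 1 of 9 without overlap, against 24.7% of all probes, and rose by 0.55 ± 0.11 (limma adjusted p = 0.00276). Gad1 probe 1 rose by 0.44 ± 0.15 (adjusted p = 0.0380), but its arrays overlapped: the 3-day arrays read 11.42, 12.02, 11.24 and 11.38, and 12.02 lay above 3 of the 7-day arrays. Probe 2 of the same gene did not follow, at 0.13 ± 0.14 (adjusted p = 0.546). The Gad1 call was lost without 3-day replicate 1, 3 or 4 or 7-day replicate 3 or 4 (adjusted p from 0.0754 to 0.113).

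At 14 days against 3 days, Sst and Reln were the 2 of 9 member probes called, against 27% of all probes. Sst rose by 0.46 ± 0.11 (limma adjusted p = 0.00764), and was the 1 of 9 without overlap, against 26.1% of all probes. Reln averaged 9.97 ± 0.15 at 14 days and 10.28 ± 0.16 at 3 days and fell by 0.31 on the log2 scale (SE 0.11, adjusted p = 0.0434). The 3-day arrays read 10.24, 10.42, 10.39 and 10.06, and the lowest of them lay below 2 of the 14-day arrays. The Reln call was lost without 14-day replicate 2 or 3 or without 3-day replicate 1, 2 or 3 (adjusted p from 0.0618 to 0.121). On the deposited intensities, with no correction at all, Reln stood at 0.26 in this comparison, Slc32a1 at 0.48 and Cck at 0.41. The direction of this Reln difference thus depends on the normalization. At 14 days against 7 days none of the 9 was called in limma, as for 0% of all probes, where 404 (2.96%) had an unadjusted p below 0.05, none of them a member. Differences in that comparison ran from -0.24 ± 0.15 for Gad1 probe 1 to 0.11 ± 0.08 for Cck.

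In a wider interneuron list the genes called against saline were lower. Of 22 tested interneuron identity genes beyond the members, each represented by its brightest probe, 0 were higher and 11 lower at 14 days, and 0 higher and 6 lower at 7 days. Over all 9534 genes 12.6% were higher and 17.5% lower at 14 days, and 12.1% and 15.4% at 7 days. The median of the list was -0.31 at 14 days and -0.19 at 7 days, against -0.06 and -0.05 over all genes. Counts at 14 days were 7, 6, 7 and 7 lower without 14-day replicate 2, 14-day replicate 4, saline replicate 1 and saline replicate 2, with 1 higher, Sncg, without saline replicate 3. Under median scaling 3 were lower at 14 days, namely Pnoc, Htr3a and Ndnf, the last picked, like Sncg, after its values were seen and not called in the main analysis. Ndnf was detected on 2 saline and 2 3-day arrays, Pnoc on 3 and 1, and both on 0 arrays at 7 and 14 days. The filter thus admitted both only through saline and 3-day arrays, so their lower values are not read as support. At 7 days median scaling gave 1 higher and 2 lower with a median of 0.03. On the authors' scaled values the counts were 9 lower at 14 days and 7 at 7 days. Median scaling moved the median of all probes to 0.18 at 7 days and 0.07 at 14 days, from which its values should be read.

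Pnoc, the precursor of the opioid-like peptide nociceptin, was detected on 0 of 4 arrays at 14 days and 0 of 4 at 7 days, against 3 of 4 in saline. It is therefore given as a bound, the saline mean over the AICAR mean, where an AICAR array counts at no less than its dimmest detected probe. By that bound Pnoc was at least 1.26-fold lower at 14 days and at least 1.24-fold lower at 7 days. It passed the detection filter only through 3 saline arrays and 1 3-day array, so the filter favoured a lower value at 7 and 14 days. Its test is therefore not read as support, and the counts of lower genes above include it. With single arrays left out Pnoc was tested in 5 fits, against 8 for the other interneuron genes called. Elfn1, a membrane protein of somatostatin cells that organizes their incoming synapses, fell by 0.48 at 14 days (SE 0.08, adjusted p = 0.000451). Cnr1, the cannabinoid receptor of Cck basket cell terminals, stood at -0.57 ± 0.12 and Htr3a, the serotonin receptor channel of Vip and neurogliaform cells, at -0.58 ± 0.12 at 14 days, both called. Kcnc1, a fast potassium channel of Pvalb cells, fell on its brightest probe (-0.48 ± 0.11) while its other probe stood at -0.20 (adjusted p = 0.233). Crhbp, a corticotropin-releasing hormone binding protein found in many somatostatin cells, was picked after its values were seen and fell by 0.38 (SE 0.10, adjusted p = 0.00806). Cort, the peptide gene closest to somatostatin, fell by 0.26 on its brightest probe (SE 0.08, adjusted p = 0.0254) and stood at 0.17 on the other (adjusted p = 0.302); the Cort call was lost without 14-day replicate 2, 3 or 4, or without saline replicate 1 or 2 (adjusted p from 0.0540 to 0.0697). Gabrd, the GABA receptor delta subunit, stood at -0.05 on its brightest probe and rose by 0.53 on its other probe (adjusted p = 0.0140). The Sst rise stood beside lower levels of Elfn1 and Crhbp, both known from somatostatin cells, but neither was called lower under median scaling. The Cort probes disagreed, and Npy stood at 0.05 at 14 days.

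**Figure D3:**
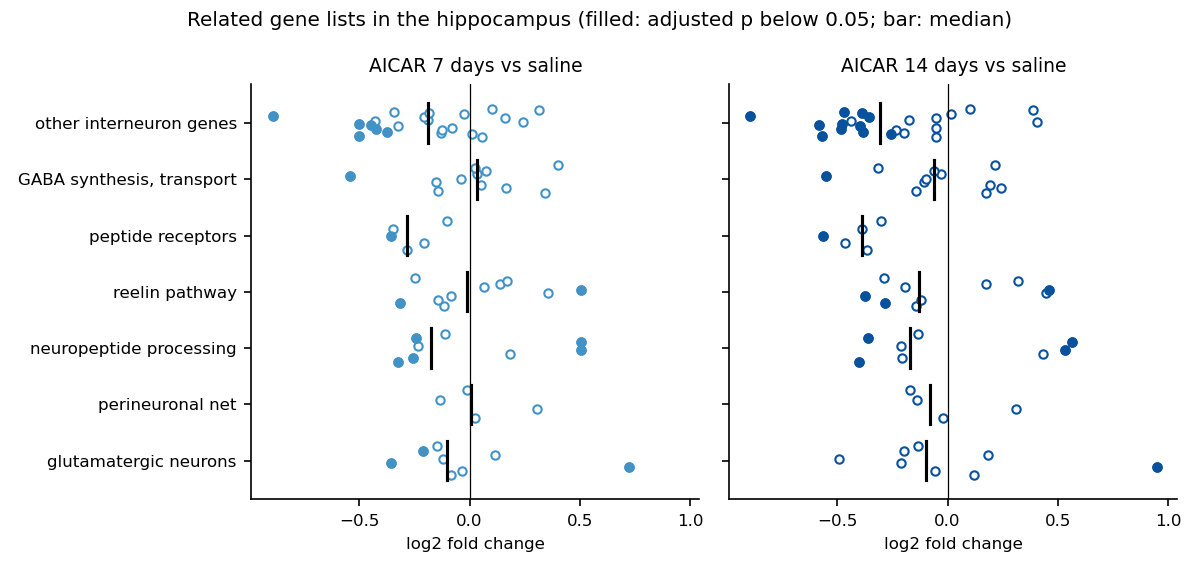
Log2 fold change against saline (x axis) at 7 days (left) and 14 days (right) of genes in 7 lists (rows), 1 probe per gene; filled points have an adjusted p below 0.05 and the vertical bar is the list median. In the row of other interneuron genes all filled points, 6 at 7 days and 11 at 14 days, lie left of 0 with quantile normalization; under median scaling 1 gene was higher at 7 days.

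Genes of GABA metabolism and transport outside the members were counted in the same way. Of 11 tested genes, 0 were higher and 1 lower at both 7 and 14 days, the glutamine carrier Slc38a1 (-0.54 ± 0.16 and -0.55 ± 0.16). Over all genes 12.1% were higher and 15.4% lower at 7 days, and 12.6% and 17.5% at 14 days. Both Slc38a1 calls were lost without replicate 4 of the AICAR group or without saline replicate 1 or 4 (adjusted p from 0.0600 to 0.0697). Abat, which breaks GABA down, stood at 0.34 ± 0.13 at 7 days (adjusted p = 0.0567) and 0.17 at 14 days. The synaptic scaffold Gphn stood at 0.19 on its brightest probe at 14 days, and another of its probes at 0.35 (adjusted p = 0.00935). The extracellular matrix of perineuronal nets, which wrap Pvalb cells, gave 0 calls among 4 tested genes at both durations. These are too few genes to set against the shares of all genes.

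Receptors for the member peptides were mostly below detection, with 5 of 14 tested and none of them a somatostatin receptor. The neuropeptide Y receptor gene Npy1r averaged 8.37 in 14-day hippocampus and 8.94 in saline hippocampus, and fell by 0.56 on the log2 scale (SE 0.09, limma adjusted p = 0.000343). At 7 days it fell by 0.36 (SE 0.09, adjusted p = 0.00815). The other 4 receptors, Cckbr, Npy2r, Npy5r and Adcyap1r1, stood at -0.47, -0.39, -0.30 and -0.37 at 14 days and were not called. Thus 1 of 5 was lower at each duration, against 17.5% of all genes at 14 days and 15.4% at 7 days. The list had 3 genes lower at 14 days without 14-day replicate 1, and 2 without 14-day replicate 2 or 4, or without saline replicate 4. All 5 receptor differences were negative at both durations, but 2 of 5 were positive at 7 days under median scaling. That scaling gave 0 calls for the list at either duration.

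Reelin binds the receptor Vldlr and the adaptor Dab1 relays its signal, and neither brightest probe was called at 14 days (-0.29 ± 0.12 and -0.12 ± 0.10). The other Vldlr probes disagreed: they stood at -0.03, -0.35, 0.33 and -0.12 at 14 days, of which -0.35 was called (adjusted p = 0.0490). Of 10 tested reelin pathway genes 1 was higher and 2 lower at 14 days, against 12.6% and 17.5% of all genes, and 1 higher and 1 lower at 7 days, against 12.1% and 15.4%. At 14 days 0 were lower without saline replicate 2, 1 without 14-day replicate 3 or 4, or without saline replicate 4, and 2 were higher without 14-day replicate 1 or 3, or without saline replicate 1 or 3. Pafah1b1, a dynein regulator, rose by 0.46 ± 0.12 at 14 days (adjusted p = 0.00791) while its other probe stood at -0.19. The kinase gene Fyn fell by 0.38 (SE 0.11, adjusted p = 0.0167) and the adaptor gene Crkl by 0.28 (SE 0.09, adjusted p = 0.0240). Median scaling, under which most called probes of the array were higher, gave 3 higher and 0 lower at 14 days, and the authors' scaled values 4 higher and 1 lower.

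Genes of peptide packaging and processing, which Sst, Npy, Vip and Cck cells share with other secretory neurons, were called in both directions, as were genes at large. Of 8 tested genes 2 were higher and 2 lower at 14 days, against 12.6% and 17.5% of all genes. At 7 days 2 were higher and 3 lower, against 12.1% and 15.4%. The 3 lower at 7 days became 1 without 7-day replicate 3 or 4, or without saline replicate 3 or 4, and 0 without 7-day replicate 1 or 2, or without saline replicate 1 or 2. At 14 days 3 were lower without 14-day replicate 4, or without saline replicate 3. The granule protein gene Scg3 rose by 0.57 ± 0.07 at 14 days (adjusted p = 7.75e-05) and the convertase inhibitor gene Pcsk1n by 0.53 ± 0.14. The convertase chaperone gene Scg5 fell by 0.36 (SE 0.08), and Chga fell by 0.40 (SE 0.11) on its brightest probe while another of its probes rose by 0.50 (adjusted p = 0.00401). Median scaling, under which most called probes of the array were higher, gave 3 higher and 0 lower at 14 days.

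Markers of other cells were counted at 14 days beside the same shares of all genes, 12.6% higher and 17.5% lower. The glutamatergic list had 1 gene higher and 0 lower of 8 at 14 days, with list means of 10.67 to 10.83 on 14-day arrays and 10.71 to 10.78 on saline arrays. Of 11 subfield and dentate genes 5 were higher and 1 lower, and their list means were 9.92 to 9.98 on 14-day arrays and 9.81 to 9.85 on saline arrays, the one of these lists without overlap. Iyd, 1 of the 5, was detected on 0 saline and 0 3-day arrays and on 4 of 4 arrays at 7 and at 14 days. It thus passed the filter only where it was higher, and its call was lost without 6 of 8 single arrays. The list means include it. Dkk3, another of the 5, stood at 0.46 and -0.10 on its other probes. Of 9 microglial genes 3 were higher and 1 lower, with list means of 8.12 to 8.41 on 14-day arrays and 8.01 to 8.15 on saline arrays. Of the microglial genes Aif1 rose by 0.50 on its brightest probe and fell by 0.44 on the other (adjusted p = 0.00419 and 0.000798). Of 9 astrocyte genes 2 were higher and 1 lower, with list means of 10.08 to 10.20 on 14-day arrays and 10.11 to 10.14 on saline arrays, and 1 was higher without 14-day replicate 1 or 2, or without saline replicate 1, 2 or 4. Among them Gfap, the intermediate filament of astrocytes, rose by 0.68 ± 0.16 (adjusted p = 0.00548). The astrocyte list as a whole did not follow, with a median of -0.10 and 4 of 9 genes positive. Slc1a3 was the gene called lower, and that call held with any single array left out. The other Aldh1l1 probes stood at 0.03 and at -0.46, of which -0.46 was called (adjusted p = 0.00306). Median scaling, under which most called probes of the array were higher, gave 3 higher and 0 lower for the subfield genes and for the microglial genes. Choroid plexus genes, 8 of 8 tested, had list means of 9.13 to 10.26 on 14-day arrays and 6.42 to 9.72 on saline arrays, with 1 gene called. Of 9 oligodendrocyte genes 1 was higher and 0 lower, Cnp, a call lost without 5 of 8 single arrays. Other probes of Mbp, a myelin gene of that list, were called at -0.35 and 0.72. Of 7 endothelial and blood genes 1 was higher and 0 lower, and of 10 genes of neighbouring brain regions 0 were called. The part of tissue composition in the member results was not tested.

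Pvalb was the one member compared between tissues. On the deposited linear scale its probe read 36396 to 47726 in muscle, where 16 probes had a higher mean and the brightest probe of any array read 59475, and 2439 to 5070 in hippocampus. Normalized over all 32 arrays, saline muscle read 14.99, 14.86, 14.97 and 14.95, against 12.22, 11.97, 11.95 and 12.29 in saline hippocampus. The tissues did not overlap. Muscle exceeded hippocampus by 2.84 ± 0.09 log2 units (limma adjusted p = 1.6e-22), where 80.1% of 15532 probes were called.

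No difference of Pvalb between AICAR and saline muscle was called. Group means were 15.32 ± 0.05 for saline, then 15.36 ± 0.06, 15.35 ± 0.06 and 15.35 ± 0.10 after 3, 7 and 14 days of AICAR. The differences from saline were 0.04, 0.03 and 0.03 (SE 0.07 each), with adjusted p-values of 0.875, 0.827 and 0.797 where 0%, 19.7% and 18.8% of 12977 probes were called. At 14 days the 95% interval ran from -0.12 to 0.18. The probe ranked 13 to 29 from the top within the muscle arrays, and 8 of 16 normalized values recurred on another array, so these values are bound by rank, which limits what this comparison can show. The change in muscle minus that in hippocampus was 0.12 ± 0.13 at 3 days, 0.19 ± 0.13 at 7 days and 0.27 ± 0.13 at 14 days (adjusted p = 0.885, 0.341 and 0.166, with 0%, 15.5% and 15.4% of probes called). On the authors' scaled values, in array SDs, Pvalb was called at 7 days in muscle (0.31, adjusted p = 0.0203), as was the tissue difference at 7 days (0.50, 0.00456) and 14 days (0.46, 0.00917).

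Some other fast-fibre genes rose. Of 16 tested, 3 were higher and 0 lower at 7 and at 14 days, against 10.3% and 10.4% of genes higher and 8.55% and 7.48% lower. The fast myosin heavy chains Myh1 and Myh4 rose by 0.93 ± 0.20 and 0.42 ± 0.09 at 14 days, Myh1 also on its other probe (2.37), and the fast myosin-binding protein gene Mybpc2 by 0.26 ± 0.08, a call lost without 14-day replicate 1, 3 or 4, or without saline replicate 1 or 2 (adjusted p from 0.0738 to 0.105). The list median was 0.01 at 14 days, and -0.18 with 1 higher and 2 lower under median scaling, where the median of all muscle probes was -0.25. Of 13 slow-fibre genes 2 were higher and 0 lower at 7 days, Tpm3 and Pln, and the Pln call was lost without saline replicate 3 or 4. At 14 days 1 was higher and 0 lower, the tropomyosin gene Tpm3 (1.11 ± 0.24), whose other probes stood at 1.24, -0.23 and 1.26.

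**Figure D4:**
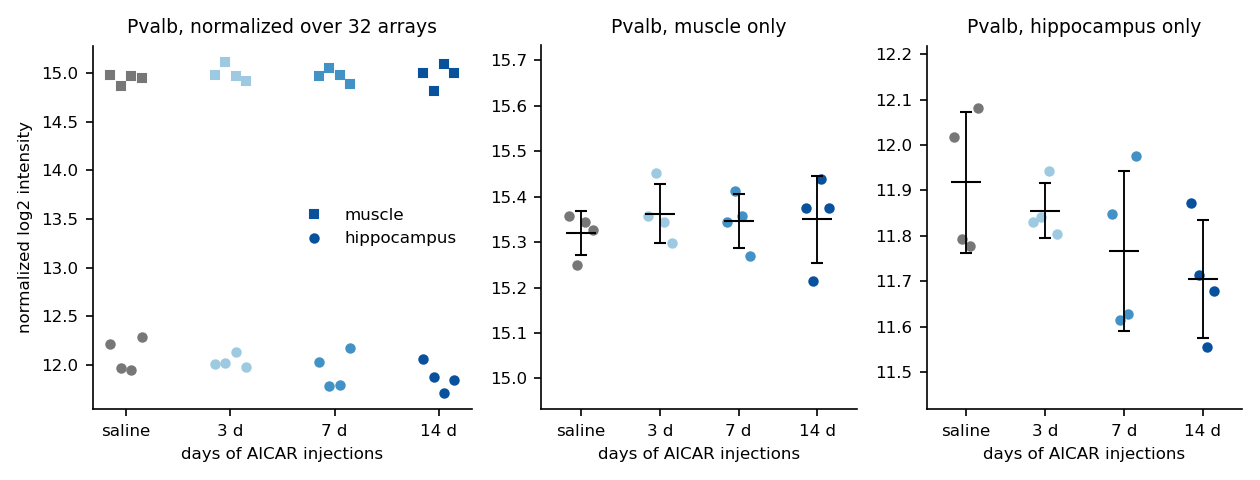
Pvalb by treatment group (x axis), 1 point per array: left, both tissues normalized over 32 arrays (squares muscle, circles hippocampus); middle and right, each tissue normalized alone, with mean and SD (n = 4). The y axes are normalized log2 intensity and do not start at 0; saline muscle points (14.86 to 14.99) sit above all hippocampal points, and the muscle group means lie between 15.32 and 15.36.

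Array-to-array variation within groups was compared between members, as deviations from the group mean over 16 arrays. Among 36 pairs of member probes no correlation passed adjustment over the pairs. The largest were Gad1 probe 2 with Npy (r = -0.77, rho = -0.64), Gad1 probe 2 with Vip (r = 0.76, rho = 0.78) and Pvalb with Reln (r = 0.70, rho = 0.65). Their permutation p-values were 0.00483, 0.0134 and 0.00687, or 0.124, 0.161 and 0.124 adjusted, and the p-values of rho gave 0.199 adjusted for each. Without the 2 arrays farthest from the median r was -0.66, 0.80 and 0.67. Within saline with 3 days and within 7 with 14 days r was -0.82 and -0.73 for Gad1 probe 2 with Npy. It was 0.78 and 0.75 for Gad1 probe 2 with Vip, and 0.61 and 0.76 for Pvalb with Reln. Gad1 probe 1 gave r = -0.39 with Npy, and -0.10 without the 2 farthest arrays, and r = 0.57 with Vip. The 2 Gad1 probes correlated at r = 0.54 and at 0.26 without the 2 farthest arrays. The genes most like Sst by this measure were Slc25a38, Nos1ap and Clcn3 (r from 0.90 to 0.91), and the genes most like Reln were Celsr3, Dpp9 and Cyria (0.85 to 0.86). Pvalb lay closest to Mgst3 and Lgi2 (0.86 and 0.85), and no member was among the 3 closest genes of another.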

How the data were processed

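The members and gene lists were chosen with earlier results of these data known. RNA of each tissue was hybridised to bead arrays read in 1 colour, per the labels. BeadStudio 1.6.0 is named in the submitters' processing notes. The deposited files give each probe's raw intensity on a linear scale, with a detection p-value set against the array's negative controls. A further deposited table holds a score per probe, which equals the log2 intensity less the array's mean, over the array's SD, when checked on the files.

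The deposited intensities were processed with limma 3.58.1 (R 4.3.3): neqc (offset 16), quantile normalization within tissue, log2. Tested probes had a detection p below 0.05 on 4 or more of 16 arrays. The model had 1 mean per group and no covariate, and for Pvalb between tissues all 32 arrays were normalized together. In related lists the brightest probe stood for a gene, and genes were named for the 4 smallest p-values or for disagreeing probes. Likeness was Pearson's r over deviations from group means. The procedure was tested on simulated data. Same-numbered arrays of different hippocampal groups correlated between -0.37 and 0.19. No label ties replicate numbers across groups, so the main model did not pair replicates. Alternatives covered background correction, scaling, the authors' scores, filters, variance models, array weights, the replicate block and single arrays left out. Symbols came from the platform table for 23978 of 25697 probes. Arrays have no counting depth, and their number limits the precision.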

Additional observations from a re-analysis of the deposited data

Results flagged for a closer look

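Among 40 groups of 4 arrays, 3 held an array far from its neighbours by Dixon's criterion, where chance gives about 1 in 20: Gad1 probe 2 at 11.44 in saline, Npy at 10.56 at 14 days and Cck at 11.81 at 3 days. Effects of different durations against the same saline group differed by test in 4 cases. Gad1 probe 1 differed by 0.44 between 7 and 3 days. Sst differed by 0.55 between 7 and 3 days and by 0.46 between 14 and 3 days. Reln differed by -0.31 between 14 and 3 days.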

How the results depend on the processing

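Of 1160 recomputed member values, 1094 kept their direction and side of the threshold, 33 lost a call, 18 gained one and 15 changed sign, where 34 sign changes of uncalled values within 1 SD are counted as kept. Median scaling turned these log2 values: Cck to -0.090 at 3 days, to 0.027 at 7 days against saline, to 0.12 for 7 against 3 days, to 0.072 for 14 against 3 days and to -0.045 for 14 against 7 days; Vip to 0.16 at 7 days and 0.17 for 14 against 3 days; Slc32a1 to 0.17 and Pvalb to 0.030 at 7 days; Pvalb to 0.19 and Reln to 0.29 for 7 against 3 days; muscle Pvalb to -0.13 and -0.16 at 7 and 14 days; and the Pvalb tissue difference to -0.16 at 7 days. With it, 93.2% of called probes were higher at 7 days and 87.5% at 14 days, against 48.4% and 46.2% in the main analysis and 59.2% and 55.6% on the authors' scores. On those scores, in array SDs, muscle Pvalb was 0.13 for 7 against 3 days, 0.31 at 7 days (called), and the tissue difference 0.50 and 0.46 (called).

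Member probes called at 7 days were 2 in place of 1 with no background correction, detection on all 16 arrays, trended robust variance or array weights, each adding Reln, and 1 to 2 with arrays left out. On the authors' scores the 1 was Cck (adjusted p = 0.0327) in place of Sst. At 14 days they were 0 in place of 2 under median scaling and 1 with no filter or the replicate block, and 1 to 2 with arrays left out. For 7 against 3 days they were 5 in place of 2 under median scaling, 1 with no filter, the replicate block or only the 2 groups fitted, and 1 to 2 with arrays left out. For 14 against 3 days they were 1 in place of 2 under median scaling, the authors' scores, no filter, array weights, the replicate block or only the 2 groups, and 1 to 2 with arrays left out. On the authors' scores the 14-day calls were 3, Reln, Slc32a1 (adjusted p = 0.0275) and Pvalb (0.0338), without Sst. Vip at 14 days was called with only the 2 groups fitted (adjusted p = 0.0330). No label ties a replicate number to another group, so whether the block reflects any pairing cannot be told. The causes were not tested. Probes near background, such as Gad2, could not be assessed.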
